A study of Mus musculus with 4 samples.

Results

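Long noncoding RNAs that are abundant in most mammalian cells were followed in NIH-3T3 fibroblasts, an established mouse cell line, after exposure to activators of chaperone-mediated autophagy (CMA), the lysosomal route that takes up single cytosolic proteins. The set consisted of 8 RNAs chosen by name: Malat1, Neat1, Gas5, Snhg1, Snhg3, Snhg5, Snhg12 and Epb41l4aos. Each was looked up through the accession of its array probe in a RefSeq gene table, and 6 of the 8 were found, each with 1 probe printed once on every array. Gas5 and Epb41l4aos had no probe that this table named and were not analysed here. The 6 RNAs are a small part of the 36838 gene names compared in the series. A gene name here is a RefSeq symbol or, for probes that the table did not name, the identifier given by the array file, so 1 gene may stand under several names.

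The study used 4 one-colour Agilent arrays with RNA of 1 culture each. The untreated culture received no treatment according to its label, and the other 3 received 20 µM of AR7, CA39 or CA77 for 24 h. AR7 is the parent compound and CA39 and CA77 are its later derivatives. The compounds were dissolved in DMSO and cells were confluent when treated, so vehicle and compound cannot be told apart in any difference from the untreated culture. No group had a replicate culture, so no test was possible and every difference below compares 2 arrays.

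Long noncoding RNAs are transcribed like messenger RNAs and encode no known protein. Malat1 stays in the nucleus at nuclear speckles, where splicing factors collect, and Neat1 is the scaffold around which paraspeckles assemble. The Snhg RNAs are host transcripts of small nucleolar RNAs (snoRNAs), the guides for chemical modification and processing of ribosomal RNA. Their snoRNAs are cut out of the introns, while the spliced exons are generally short-lived because translating ribosomes expose them to nonsense-mediated decay. Many host genes start, like ribosomal protein genes, with a run of pyrimidines at the transcription start, called a 5′ terminal oligopyrimidine (TOP) sequence.

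The snoRNA content separated the 6 genes in the gene annotation (RefSeq, GRCm38.p6). The span of Snhg1 held 8 annotated snoRNA genes, that of Snhg12 held 4, and those of Snhg3 and Snhg5 held 2 each, while Malat1 and Neat1 held 0. The genes inside Snhg3 were Snora73a and Snora73b, and those inside Snhg12 were Snora16a, Snora44, Snora61 and Snord99. None of the snoRNA genes inside these spans had a probe matched here, so only the host transcripts were measured.

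The start regions of the host genes are shown so that they can be set against the TOP description above, and that of Malat1 is shown beside them as a gene without snoRNAs. Each line gives 50 bases before and 50 bases after the annotated start (RefSeq, GRCm38.p6), read along the gene. Capitals mark the letters TATAA on either strand and any unbroken run of at least 5 pyrimidines read from a C within 10 bases of the start, whether or not other pyrimidines precede that C.
Snhg1 (chr19:8723437-8723536, plus strand): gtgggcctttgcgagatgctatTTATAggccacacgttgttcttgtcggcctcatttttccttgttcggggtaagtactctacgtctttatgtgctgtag
Snhg5 (chr9:88522848-88522947, minus strand): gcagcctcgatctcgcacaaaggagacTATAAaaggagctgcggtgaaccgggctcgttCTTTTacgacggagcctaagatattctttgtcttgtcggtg
Snhg12 (chr4:132308628-132308727, plus strand): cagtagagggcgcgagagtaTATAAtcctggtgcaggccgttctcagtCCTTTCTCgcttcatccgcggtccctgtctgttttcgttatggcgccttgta
Snhg3 (chr4:132353637-132353736, minus strand): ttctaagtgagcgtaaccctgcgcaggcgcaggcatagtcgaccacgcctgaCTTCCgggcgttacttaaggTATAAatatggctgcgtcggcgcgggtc
Malat1 (chr19:5802623-5802722, minus strand): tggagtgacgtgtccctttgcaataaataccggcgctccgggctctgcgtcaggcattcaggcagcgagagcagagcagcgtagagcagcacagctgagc

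TATAA was present in all 4 host gene windows, on the opposite strand in Snhg1 and after the annotated start in Snhg3, and not in that of Malat1. Of 32851 windows of the same length, 9.26% held it. A pyrimidine run that met the rule was present in Snhg5, Snhg12 and Snhg3, and 29% of all windows held one. Counted from a C, the longest was that of Snhg12, with 8 bases. No run in Snhg1 met the rule, but its window held the unbroken pyrimidine stretch tttttcctt just after the annotated start. Read from its first C, that stretch was too short for the rule. Pyrimidines before the C were not counted in any of these lengths. Both features together were present in 2.54% of all windows. These matches describe letters only. Neat1 was not in the sequence table.

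Levels are normalized spot intensities on the log2 scale, and a difference is the log2 level on 1 array minus that on another. The error within an array came from 399 probes printed 10 times, whose median SD was between 0.09 and 0.12 (log2). The measurement tolerance for a difference of 2 arrays was therefore 0.16 (log2). It equals 1 SD of the difference between 2 single spots, so spot scatter alone can put a difference beyond it. It holds the error of spots and not the variation between cultures. All 6 probes were well above background on all 4 arrays, carried no outlier mark and were not saturated.

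The arrays were similar in brightness, with a median net signal between 89.5 and 108 scanner units, while the share of probes well above background ran from 52.2% on CA39 to 69.7% on untreated. All were on 1 slide, the untreated array in its first row and the treated arrays in the second, which means that the position on the slide and the treatment cannot be told apart. The fibroblast label was checked with 8 markers, of which 7 were detected on every array and Pdgfrb on CA39 alone. Of these 7, all lay above untreated beyond the tolerance with CA39, while 6 lay below it with AR7 and 4 with CA77. Of all gene names detected on all arrays, 23.6% were higher by as much with CA39, and 20.8% and 26% were lower with AR7 and CA77.

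Among the 6 RNAs, 4 lay beyond the tolerance with AR7, 5 with CA39 and 3 with CA77. Over the 20594 gene names detected on all arrays, the shares beyond the tolerance were 36.9%, 57.1% and 43.9%. Past 1.5-fold there were 0, 1 and 0 of the 6, where the shares of all these gene names were 3.09%, 10.1% and 3.85%. These counts are small, and the shares of all genes beside them show that a difference beyond the tolerance was common on these arrays.

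**Figure D1:**
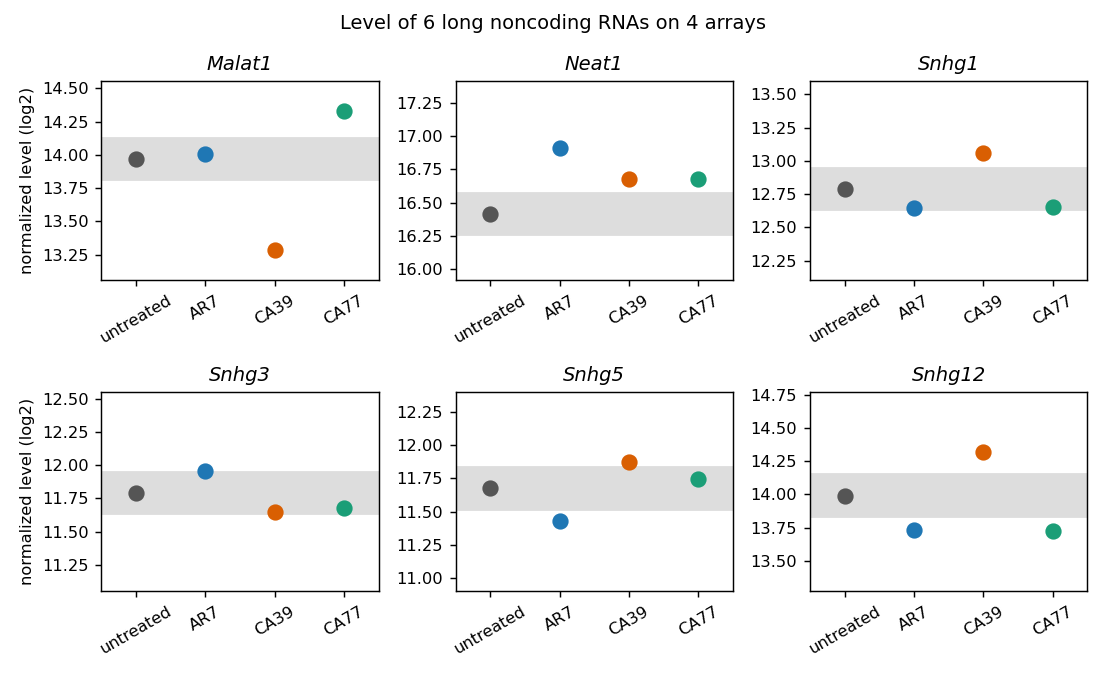
Normalized level (log2, vertical axis) of each RNA on the untreated, AR7, CA39 and CA77 arrays, 1 point per array, with a vertical axis of the same height in every panel. The grey band is the untreated level plus or minus the tolerance of 0.16, and Malat1 with CA39 at 13.28 lies farthest outside it.

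Malat1, the RNA of nuclear speckles, had the widest range. The untreated array gave a net signal of 16527 scanner units, AR7 gave 18088, CA39 gave 10236 and CA77 gave 19453. After normalization the untreated level was 13.97 (log2), with 14.01 for AR7, 13.28 for CA39 and 14.33 for CA77. CA39 was the lowest array and CA77 the highest, and untreated and AR7 did not differ beyond the tolerance.

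Against untreated, Malat1 differed by -0.69 with CA39, which is 1.61-fold lower, by 0.36 with CA77 and by 0.04 with AR7. A difference at least as low as that of CA39 was found in 2.95% of all gene names detected on all arrays, and one at least as high as that of CA77 in 4.62%. Probes lying around the Malat1 spot, within 10 grid rows and columns, had a median difference of -0.03 with CA39 and -0.03 with CA77, so that the difference minus this local median was -0.66 and 0.39. Over the 5 other ways of processing that could move it, the CA39 difference of Malat1 stayed between -0.81 and -0.66, while the CA77 difference ran from 0.24, in the unscaled series table, to 0.39.

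Beside the Malat1 difference, cell type markers also moved on the CA39 array. Over the 8 fibroblast markers the normalized signal summed to 647584 for untreated and to 512125, 973893 and 555840 for AR7, CA39 and CA77. The 4 epithelial markers summed to 394 for untreated and to 417, 1508 and 314 in the same order. Krt8 and Krt18, detected on every array, differed by 2.38 and 0.98 with CA39, while Epcam was detected on CA39 alone and Cdh1 on no array. The 3 immune markers with a probe summed to between 4390 and 5734 and the 3 endothelial markers to between 3836 and 4343. The 3 neural markers summed to 817 for untreated and to 769, 1382 and 918 for AR7, CA39 and CA77, with CA39 the highest. Of them, Map2 was detected on every array and differed by 0.57 with CA39, and Tubb3, detected on untreated and CA39, by 2.78. The untreated Tubb3 level, 5.72 (log2), was below the 6.45 on AR7, where it was not detected, so that difference starts near background. Rbfox3, detected on untreated and CA77, differed by -0.90 with CA39, where it was not well above background. A second Rbfox3 probe, detected on the same arrays, gave -0.03, so these probes disagree. The part of the cell type markers in the differences of the noncoding RNAs was not tested.

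The 3 named genes nearest to the Malat1 pattern, by root mean square distance over the 3 differences from untreated, were Tgfbr3 (0.05), Kifc5b (0.06) and Id2 (0.06), out of 13018 symbols. Within the tolerance of 0.16 there were 47 such symbols. Frmd8, a protein-coding gene of the same locus, differed from untreated by 0.08, 0.05 and 0.08 for AR7, CA39 and CA77 in turn, all within the tolerance.

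Neat1, the paraspeckle scaffold transcribed from the same stretch of chromosome 19 as Malat1, was higher on all treated arrays. The untreated array gave a net signal of 89564 scanner units, and the AR7, CA39 and CA77 arrays gave 128993, 105007 and 99235. The normalized level was 16.42 (log2) on untreated and 16.91, 16.68 and 16.68 on the treated arrays in that order. CA39 and CA77 are equal here because the probe held the same rank on both arrays and quantile normalization gives 1 value per rank.

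Neat1 was above untreated by 0.50 with AR7 (1.41-fold) and by 0.27 with each of CA39 and CA77, all beyond the tolerance and all under 1.5-fold. Of all gene names detected on all arrays, 2.28% were at least as high with AR7, 15.7% with CA39 and 8.66% with CA77. All 3 differences share the untreated array, so a high or low value there would move them together. The AR7 value stayed between 0.48 and 0.55 over the alternatives. That of CA39 went down to 0.17 with 75th percentile scaling, just beyond the tolerance, and that of CA77 went down to 0.15, under the tolerance, with the unscaled values of the deposited series table. Which isoforms of Neat1 the probe reads is not given in the sources used here.

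The nearest patterns to Neat1 were those of Abcb1a (0.02), Omp (0.02) and Creg1 (0.04), and 193 symbols lay within the tolerance. Malat1 and Neat1 did not move alike, since with CA39 one was lower and the other higher than untreated.

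**Figure D2:**
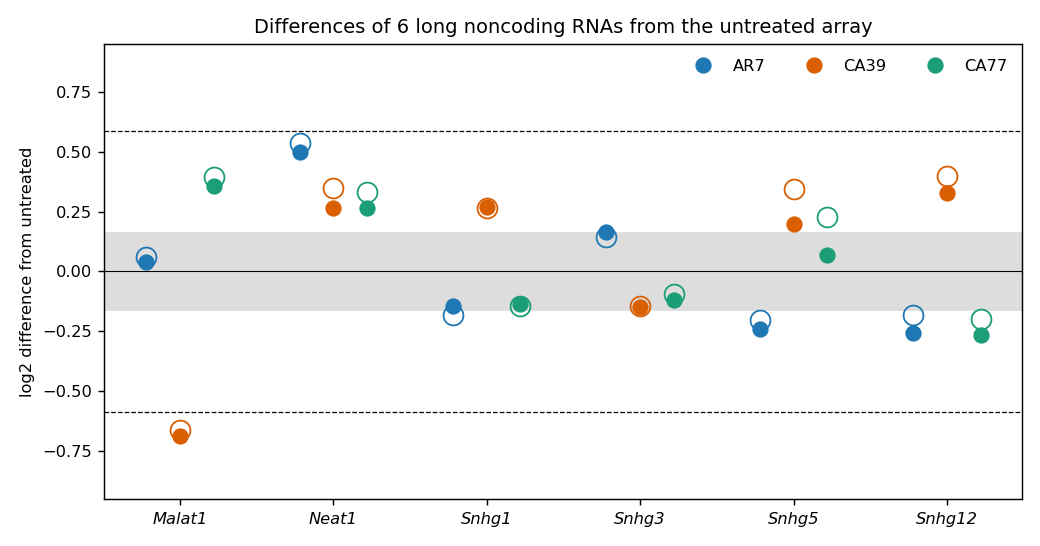
Log2 difference from the untreated array (vertical axis) of each RNA with AR7, CA39 and CA77. Filled points are the differences as reported, open points the same after subtracting the median of neighbouring probes, the grey band is the tolerance of 0.16 and dashed lines mark 1.5-fold, which Malat1 with CA39 alone passes.

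Snhg12, a host of snoRNAs of both main classes, had a net signal of 16525 scanner units on untreated, and of 14467, 21266 and 12546 on the AR7, CA39 and CA77 arrays. In the same order the normalized levels were 13.99, 13.73, 14.32 and 13.72 (log2). CA39 was the highest, AR7 and CA77 were the lowest and did not differ from each other beyond the tolerance, and untreated lay between.

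Against untreated, Snhg12 was higher with CA39 by 0.33 and differed by -0.26 with AR7 and by -0.27 with CA77, each beyond the tolerance. As many as 10.8% of all gene names were at least as low with AR7, 12.5% at least as high with CA39 and 14.1% at least as low with CA77, so these values lie in the outer part of the distribution without being rare in it. The adjoining gene Trnau1ap, whose product takes part in selenocysteine incorporation, differed by -0.16, -0.10 and -0.14 for AR7, CA39 and CA77. All of these lay within the tolerance, the AR7 value barely. Rab42, on the other side, was detected with AR7 and on no other array.

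Snhg1, which holds the most snoRNA genes of the set, was also highest with CA39, with smaller steps between arrays than Snhg12. The net signal was 7083 scanner units for untreated and 6780, 8743 and 5880 for AR7, CA39 and CA77, and the normalized levels were 12.79, 12.64, 13.06 and 12.65 (log2). CA39 lay above the other 3 arrays, which did not differ among themselves beyond the tolerance. The differences from untreated were 0.27 with CA39, beyond the tolerance, and -0.14 with AR7 and -0.13 with CA77, within it. The AR7 value passed the tolerance with 75th percentile scaling (-0.16) and after subtracting the local median (-0.18), and the CA77 value did so in the unscaled series table (-0.27).

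Slc3a2 lies 118 bases from Snhg1 in the gene table and encodes the heavy chain of amino acid transporters. Its difference was 0.31 with CA39, -0.34 with CA77 and 0.03 with AR7. The other neighbour, Wdr74, stayed within the tolerance, at 0.04, 0.11 and 0.04 for AR7, CA39 and CA77. The genes nearest to the Snhg1 pattern were Asns, which encodes asparagine synthetase (0.01), Saraf (0.02) and Mfsd14a (0.02), although 1833 symbols lay within the tolerance of it.

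Snhg5 gave 3333 scanner units on untreated and 2954, 3980 and 3093 with AR7, CA39 and CA77. The normalized levels were 11.67, 11.43, 11.87 and 11.74 (log2), so AR7 was lowest and CA39 highest, and CA77 differed from neither untreated nor CA39 beyond the tolerance. CA39 lay above CA77 by 0.13, but by 0.17 with the quantile-normalized processed signal and by 0.36 in the unscaled series table, both beyond it. Relative to untreated, AR7 was at -0.24, CA39 at 0.20 and CA77 at 0.07. Around the Snhg5 spot the local medians were -0.04, -0.15 and -0.16, and after subtracting them the differences were -0.20, 0.35 and 0.23. Its value with CA77 was the least settled of the set, running from -0.11 to 0.23 over the alternatives. The coding gene on one side, Zfp949, was above untreated by 0.33, 0.21 and 0.25 with AR7, CA39 and CA77, all beyond the tolerance, and Syncrip, on the other side, gave -0.10, 0.10 and -0.11, all within it.

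Snhg3, the host of the U17 snoRNAs that act in ribosomal RNA processing, moved least. It gave 3599 scanner units on untreated and 4098, 3295 and 2963 with AR7, CA39 and CA77, with normalized levels of 11.79, 11.96, 11.65 and 11.68 (log2). AR7 differed from untreated by 0.17, barely beyond the tolerance, and 15.3% of gene names were at least as high. This call ended under 3 alternatives, at 0.15 with the quantile-normalized processed signal, 0.11 with 75th percentile scaling and 0.14 after subtracting the local median. With CA39 the difference was -0.15, within the tolerance, but -0.19 with 75th percentile scaling. With CA77 it was -0.12, but -0.28 in the unscaled series table. Rcc1 and Phactr4, the coding genes on either side, stayed between -0.13 and 0.08 with every compound.

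**Figure D3:**
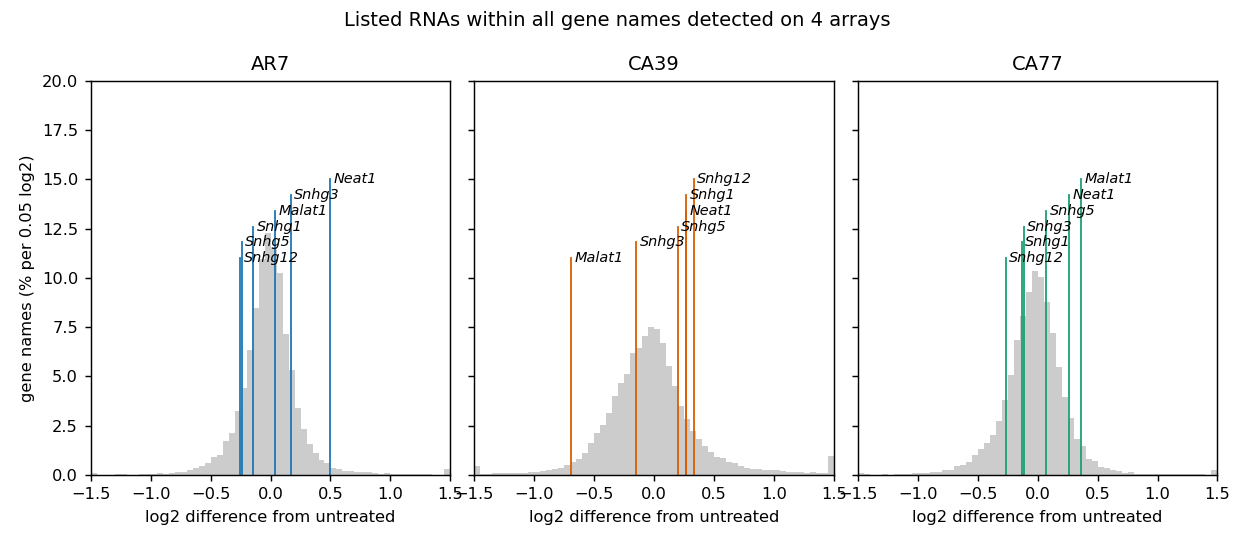
Distribution of log2 differences from untreated over 20594 gene names (grey, percent of names per step of 0.05, values beyond 1.5 drawn in the end bars) with the 6 RNAs as coloured lines, whose heights only separate the names. The distribution is widest with CA39, with an SD of 0.45 against 0.29 with AR7 and 0.29 with CA77.

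Seen as a set, the 6 RNAs had a median difference from untreated of 0.23 with CA39, where the median of all gene names was -0.04. For AR7 the medians were -0.05 and -0.01, and for CA77 they were -0.02 and -0.02. With CA39, 4 of the 6 were higher by more than the tolerance, namely Neat1, Snhg1, Snhg5 and Snhg12, and 1, Malat1, was lower, where 23.6% of all gene names were higher and 33.5% were lower by as much. With AR7, 2 were higher (Neat1 and Snhg3) and 2 lower (Snhg5 and Snhg12), beside 16.2% and 20.8% of all names. With CA77, 2 were higher (Malat1 and Neat1) and 1 lower (Snhg12), beside 18% and 26%.

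The compounds were also set against each other at the same dose and time, in 18 comparisons over 3 pairs and 6 RNAs, for which no test was possible. CA39 and AR7 differed beyond the tolerance in all 6 RNAs, where 57.6% of all gene names did. CA77 and AR7 differed beyond it in 4 of 6, where 35.4% did, and CA39 and CA77 in 3 of 6, where 55.2% did. Past 1.5-fold, CA39 differed from AR7 in Malat1 and Snhg12, beside 11.8% of all names, and from CA77 in the same 2 RNAs, beside 10.9%. The Snhg12 difference between CA39 and AR7 lay at the threshold and fell under 1.5-fold in 4 of the 5 alternatives that could move it, at 0.52 to 0.58 (log2), and that between CA39 and CA77 did so in 2, at 0.57 and 0.51. The Malat1 differences stayed past 1.5-fold in all 5. Between CA77 and AR7 there was no RNA of the set past 1.5-fold (0 of 6), beside 2.02%.

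Malat1 separated the derivatives most. It was 2.07-fold lower with CA39 than with CA77, a difference of -1.05 (log2), and 1.42% of all gene names differed at least as far in that direction. Against AR7 it differed by -0.73 with CA39 and by 0.32 with CA77, the latter 0.10 in the unscaled series table. Neat1 lay below its AR7 level at -0.23 with both derivatives, while the alternatives gave -0.31 to -0.19 for CA39 and -0.38 to -0.17 for CA77. Snhg12 was higher with CA39 than with AR7 by 0.59 and than with CA77 by 0.60, while CA77 and AR7 differed by -0.01 (-0.21 in the unscaled series table). Snhg1 gave 0.41 for CA39 against AR7, 0.40 for CA39 against CA77 and 0.01 for CA77 against AR7, the last also -0.21 in the unscaled series table. In Snhg5, AR7 was the low array, with CA39 higher by 0.44 and CA77 higher by 0.31, the latter 0.07 in the unscaled series table. In Snhg3, AR7 was the high array, with CA39 at -0.31 and CA77 at -0.28 against it, the latter -0.47 in the unscaled series table.

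Other snoRNA host RNAs were examined to see whether they followed the listed hosts. Of 15 on the list, 7 had a matched probe and all 7 were detected on every array. Beyond the tolerance, 0 were higher and 3 lower with AR7, 2 higher and 1 lower with CA39, and 0 higher and 2 lower with CA77, with medians of -0.13, 0.03 and -0.10. Over all gene names the upward shares were 16.2%, 23.6% and 18% and the downward shares 20.8%, 33.5% and 26% for AR7, CA39 and CA77. The 2 of 7 higher with CA39 lay near the share of all genes. By the brightest probe, Snhg18 alone of the 7 was past 1.5-fold, at 0.92 with CA39, where 10.1% of all gene names were. With AR7 and CA77 it gave -0.24 and -0.09. Snhg7 gave -0.13, 0.43 and -0.30 in the order AR7, CA39 and CA77. Snhg16 gave 0.11, -0.27 and -0.16, and a second, dimmer probe gave 0.57, -0.65 and 0.30. Dancr gave -0.19, 0.02 and -0.39, and Snhg6 and Snhg15 stayed within the tolerance with all compounds.

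The proteins that bind snoRNAs were compared next. All 12 core and assembly proteins of snoRNA particles were detected, and 0 were past 1.5-fold with any compound, where 3.09%, 10.1% and 3.85% of all gene names were with AR7, CA39 and CA77. With CA39, 6 of the 12 were lower beyond the tolerance and 0 higher, with a median of -0.14, and with AR7 and CA77 it was 2 and 3 lower and 0 higher, with medians of -0.06 and -0.06. The shares of all gene names lower by as much were 33.5% with CA39, 20.8% with AR7 and 26% with CA77, close to those of the 12 with AR7 and CA77, and the shares higher were 23.6%, 16.2% and 18%. Fbl, the methyltransferase of box C/D particles, differed by -0.26, -0.42 and -0.28 for AR7, CA39 and CA77. Dkc1, the pseudouridine synthase of box H/ACA particles, differed by 0.01, -0.34 and -0.05. Snu13, a box C/D core protein, gave 0.01, -0.24 and -0.10, and its second probe gave -0.02, -0.33 and -0.14.

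Protein-coding messengers with a TOP start differed little from untreated. Of 19 detected, 0 passed 1.5-fold with any compound, where 3.09%, 10.1% and 3.85% of all gene names did. Their median was 0.15 with CA39 (-0.04 over all gene names), beside 0.00 for AR7 and 0.04 for CA77, and 4 were higher beyond the tolerance with CA39, 0 with AR7 and 0 with CA77, beside 23.6%, 16.2% and 18% of all gene names. With each compound 0 of the 19 were lower beyond it, beside 33.5%, 20.8% and 26% of all names in that order. The farthest was Eif4b, a translation initiation factor, at 0.37 with CA39, while 2 other probes of it gave 0.41 and 0.04.

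Paraspeckle proteins were followed as the partners of Neat1. All 17 were detected, and 1 passed 1.5-fold by the brightest probe, Taf15 at -0.62 with CA77, with -0.13 for AR7 and -0.44 for CA39. Past 1.5-fold were 3.85% of all gene names with CA77, 3.09% with AR7 and 10.1% with CA39. Beyond the tolerance, 1 was higher and 6 lower with AR7, 2 higher and 9 lower with CA39, and 2 higher and 4 lower with CA77, with medians of -0.07, -0.16 and -0.09. The upward shares of all gene names were 16.2%, 23.6% and 18% in that order and the downward ones 20.8%, 33.5% and 26%, so that the CA77 count lay near the share of all genes. Pspc1, a core paraspeckle protein, differed by -0.49, -0.25 and -0.54. Sfpq, which binds Neat1 in paraspeckles, differed by -0.28, -0.19 and -0.10. Its second probe gave -0.20, -0.06 and -0.16, beyond the tolerance with CA77 rather than with CA39. Nono, the partner of Sfpq, was beyond the tolerance with CA39 alone, at 0.19, and its second probe gave 0.27. The brightest Tardbp probe gave 0.01, -0.20 and 0.01, while a second one, at 12.54 on untreated, 12.66 on CA39 and 12.65 on CA77 (log2), was not well above background on AR7, so these probes disagree there. No paraspeckles were counted, so these are RNA levels of the components only.

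**Figure D4:**
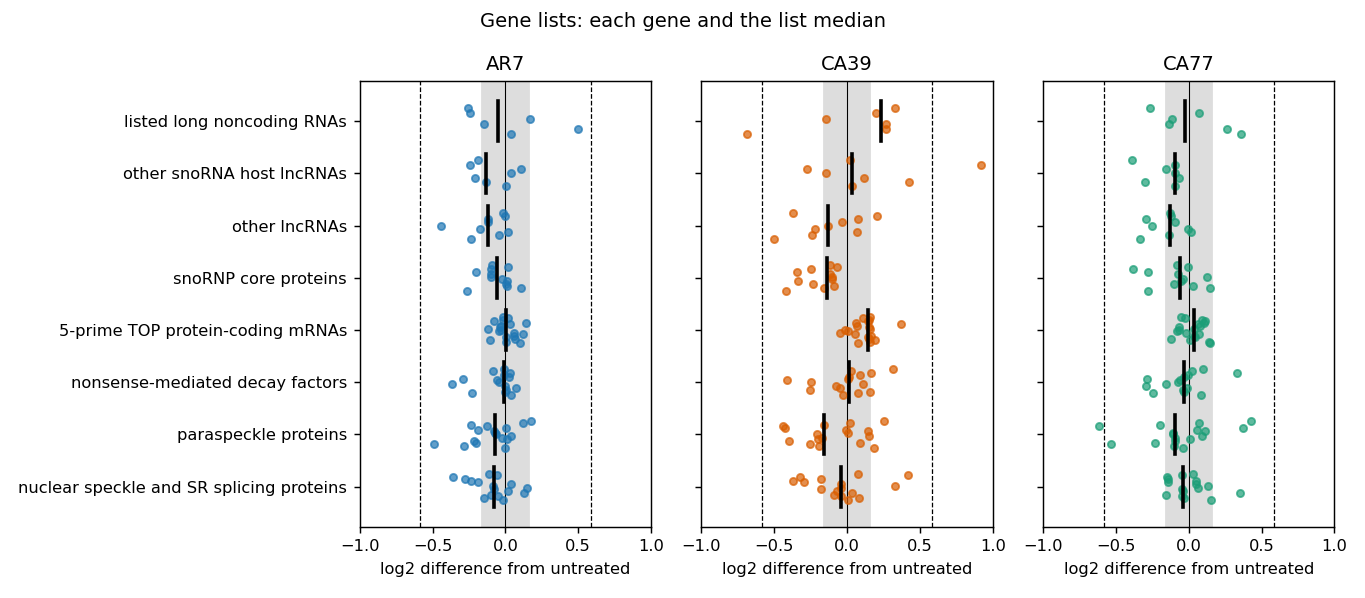
Log2 difference from untreated (horizontal axis) for each detected gene of 8 lists, with the list median as a black bar, the tolerance as a grey band and 1.5-fold as dashed lines. The snoRNP core proteins lie mostly to the left with CA39 (median -0.14), while the listed RNAs have their median at 0.23 and Malat1 at -0.69.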

How the data were processed

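Cy3-labelled total RNA was hybridized to Agilent Mouse 8x60K arrays, 1 per condition. The authors extracted spots with Feature Extraction 10.7.3.1, and the files deposited by the authors hold linear spot intensities. The deposited series table held the same background-subtracted intensities at all 62976 spots (relative tolerance 0.001), unscaled, with medians of 90.6, 91.1, 84.1 and 76.0 on untreated, AR7, CA39 and CA77. Robust multiarray average values, which the methods name, were not used here. Median spot intensity was corrected for local background by a normal-exponential fit (limma 3.58.1 under R 4.3.3, offset 0), control spots were left out, and arrays were quantile normalized and put on the log2 scale. Between 142 and 328 outlier-marked spots per array were left out. The number of arrays limits the precision.

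Accessions were matched without versions to RefSeq GRCm38.p6, which named 27512 of 55378 probes, and the brightest probe stood for a gene. Detection required the scanner software's mark "well above background" on over 50% of the spots of a probe. With 1 array per group no test was run. The code for background correction and quantile normalization was tested on simulated data, and the later steps were not.

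The members and lists were chosen with earlier results of these data known. Named were all listed RNAs, their nearest coding genes (1 is not reported here), the 3 nearest patterns of members that differed (those of Snhg3, Snhg5 and Snhg12 are not reported), and members of the RNA and protein lists past 1.5-fold, a rule that leaves out the cell type markers. Other list genes were named for their role or after their values were seen. Alternatives were a background offset of 50, the processed signal with quantile or 75th percentile scaling, the series table, keeping marked spots, averaging probes, subtracting the local median, no lower limit for dim probes and a 2-fold threshold.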

Additional observations from a re-analysis of the deposited data

How the results depend on the processing

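Each difference of the 6 RNAs from untreated was recomputed in 8 ways, of which 3 could not move it by construction, since each RNA had 1 detected probe with no outlier mark (averaging the probes of a gene, no lower limit for dim probes, keeping marked spots). Under the other 5, 88 of 90 values stayed within the tolerance of the reported one. The exceptions were Snhg3 (-0.28) and Snhg5 (-0.11) with CA77 in the deposited series table, where the arrays are unscaled and the median of all gene names was -0.19 with CA77. Of 12 differences beyond the tolerance, 10 stayed beyond it under all 5, and Snhg3 with AR7 (down to 0.11) and Neat1 with CA77 (0.15) did not. Of 6 within it, 5 passed it under at least 1, all but Malat1 with AR7. Between compounds, calls that changed are given beside their values. The median of the 6 RNAs with CA77 became -0.19 in the deposited series table and 0.07 after subtracting the local median. With AR7 it became 0.03 in the series table, so the sign of these medians near 0 is not settled. The number past 1.5-fold with CA39 was 1, and 0 at the 2-fold threshold. With the 75th percentile scaling the median of all gene names with CA39 was -0.12. No paired analysis was possible because every group had 1 array and the labels give no replicate numbers. Each RNA was read from a single spot well above background, and variation between cultures was not measured.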

Other observations

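Factors of nonsense-mediated decay, the route that removes spliced host RNAs, and nuclear speckle proteins, which share the speckles with Malat1, gave no gene past 1.5-fold by the brightest probe, where 3.09%, 10.1% and 3.85% of all gene names were with AR7, CA39 and CA77. Of 15 decay factors detected, those above the tolerance numbered 0, 3 and 1 and those below it 3, 3 and 3 for AR7, CA39 and CA77, with medians of -0.01, 0.01 and -0.04. Of all gene names, 16.2%, 23.6% and 18% were above and 20.8%, 33.5% and 26% below it in that order, so these counts lay at or under the shares of all genes. Upf1, the central helicase of this route, differed by 0.04, -0.03 and 0.09 in that order, while Smg6, the endonuclease, differed by -0.36, 0.11 and -0.16. Of 16 speckle and SR splicing proteins, 0, 2 and 1 were above and 4, 5 and 0 below the tolerance in the same order. Clk1, a kinase of SR proteins, differed by -0.06, 0.42 and -0.05. A second probe of Srrm2, a core speckle protein, stood at -0.77 with CA39 and level with untreated otherwise, where its brighter probe gave -0.19, -0.30 and -0.14. A second probe of Srsf10, an SR-type splicing factor, gave -0.11, -0.46 and 0.69, where its brightest probe gave 0.15, -0.04 and 0.07.

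Of 22 other long noncoding RNAs, 13 had a probe and 9 were detected on every array, of which 0 passed 1.5-fold by the brightest probe, beside the same shares of all gene names. Beyond the tolerance, 0, 1 and 0 of the 9 were higher and 3, 4 and 3 lower for AR7, CA39 and CA77, beside 16.2%, 23.6% and 18% of all gene names higher and 20.8%, 33.5% and 26% lower. Their medians were -0.12, -0.13 and -0.13 for AR7, CA39 and CA77. Dleu2 differed by -0.44, -0.13 and -0.25 and Lockd by -0.02, -0.37 and -0.13. The brightest of 5 probes of H19, an imprinted RNA, gave -0.23, -0.50 and -0.34. Another H19 probe, also detected on all arrays, stood at 2.83 with AR7 and at -0.09 and -0.07 with the other compounds, so the probes disagree. Tug1 gave 0.02, 0.07 and 0.02, while its other probes ranged from -0.08 to 0.45 with CA39.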
